A study of Homo sapiens with 4 samples.

Results

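SW620 was set against SW480 at the stretches of chromatin that H3K27ac HiChIP had marked as loop anchors in both lines. An anchor of SW620 and an anchor of SW480 were taken as the same place where each covered at least 50% of the other, which gave 4390 matched anchors, 18.1% of the 24255 anchors of SW620 and 47.8% of the 9177 anchors of SW480. Filtered loops with both ends at such anchors numbered 4788. SW620 and SW480 are established colorectal cancer lines derived from the same patient, SW620 from a lymph node metastasis and SW480 from the primary tumour. The labels give SW620 as a Dukes' type C adenocarcinoma line and SW480 as a Dukes' type B one, both untreated. The series holds 4 untreated colorectal cancer lines with 1 library each, and HCT116, a colorectal carcinoma line, and LS513, a Dukes' type C one, serve only as a backdrop. All cells had been fixed with 1% formaldehyde for 10 minutes, cut with MboI, and made into libraries with Tn5 after immunoprecipitation. With no replicate of any line, differences have no replicate check, and no test was made.

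Acetylation of lysine 27 on histone H3 marks active promoters and enhancers. HiChIP ligates DNA ends that lie close together in fixed nuclei and then enriches for fragments carrying a chosen mark, so each paired-end tag (PET) reports a pair of nearby ends on acetylated chromatin. A PET with both ends in the same anchor reports mainly how strongly that anchor was captured, and a PET joining different anchors reports a loop. In a colon epithelial cell such anchors lie at promoters and enhancers of genes for Wnt feedback, keratins, cell junctions and intestinal transcription factors.

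The promoters below are shown because their anchors carry the results: HSP90B1, SEMA4G and HIP1 lie at anchors among the most strongly raised in SW620, KDM5A and NEMP2 at anchors among the most strongly lowered, and CDX2 is the one listed intestinal transcription factor whose anchor was lower. Sequences are from RefSeq on GRCh38.p14, 250 bases before to 50 after the gene's start, 5′ to 3′ on the gene's strand, and capitals mark GGGCGG (the GC box) and CCAAT (the CCAAT box) on either strand. Their places are chr12:103930160-103930459 on the plus strand for HSP90B1, chr10:100969254-100969553 on the plus strand for SEMA4G, chr7:75738892-75739191 on the minus strand for HIP1, chr12:389271-389570 on the minus strand for KDM5A, chr2:190534673-190534972 on the minus strand for NEMP2 and chr13:27969266-27969565 on the minus strand for CDX2.
HSP90B1: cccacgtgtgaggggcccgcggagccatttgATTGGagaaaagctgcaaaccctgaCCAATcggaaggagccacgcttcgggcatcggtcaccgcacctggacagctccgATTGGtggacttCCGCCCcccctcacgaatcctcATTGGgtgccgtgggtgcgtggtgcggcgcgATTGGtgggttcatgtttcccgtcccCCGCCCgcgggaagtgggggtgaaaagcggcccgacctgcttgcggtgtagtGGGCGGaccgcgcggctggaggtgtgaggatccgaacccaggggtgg
SEMA4G: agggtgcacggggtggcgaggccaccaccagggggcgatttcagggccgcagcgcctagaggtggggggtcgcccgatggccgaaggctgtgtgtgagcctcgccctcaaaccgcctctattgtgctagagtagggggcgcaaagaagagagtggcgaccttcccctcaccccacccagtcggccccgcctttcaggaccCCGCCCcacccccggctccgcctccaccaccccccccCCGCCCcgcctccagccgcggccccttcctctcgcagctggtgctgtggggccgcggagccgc
HIP1: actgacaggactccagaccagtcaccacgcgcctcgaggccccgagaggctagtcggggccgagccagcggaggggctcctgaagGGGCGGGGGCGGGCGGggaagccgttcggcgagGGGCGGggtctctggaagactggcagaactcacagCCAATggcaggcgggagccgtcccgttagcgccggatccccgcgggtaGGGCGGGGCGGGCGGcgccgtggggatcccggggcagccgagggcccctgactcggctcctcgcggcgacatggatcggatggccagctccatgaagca
KDM5A: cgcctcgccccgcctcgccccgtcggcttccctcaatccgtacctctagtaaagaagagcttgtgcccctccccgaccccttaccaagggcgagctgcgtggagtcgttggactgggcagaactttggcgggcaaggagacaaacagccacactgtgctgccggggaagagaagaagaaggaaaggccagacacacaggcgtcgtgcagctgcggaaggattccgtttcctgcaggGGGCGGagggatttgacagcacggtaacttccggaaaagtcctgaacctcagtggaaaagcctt
NEMP2: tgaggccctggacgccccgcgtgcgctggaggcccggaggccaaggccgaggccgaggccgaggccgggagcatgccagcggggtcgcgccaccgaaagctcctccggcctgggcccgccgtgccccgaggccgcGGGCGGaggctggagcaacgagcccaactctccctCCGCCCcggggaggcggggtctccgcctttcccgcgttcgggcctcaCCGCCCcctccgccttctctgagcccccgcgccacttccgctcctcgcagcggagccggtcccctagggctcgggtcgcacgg
CDX2: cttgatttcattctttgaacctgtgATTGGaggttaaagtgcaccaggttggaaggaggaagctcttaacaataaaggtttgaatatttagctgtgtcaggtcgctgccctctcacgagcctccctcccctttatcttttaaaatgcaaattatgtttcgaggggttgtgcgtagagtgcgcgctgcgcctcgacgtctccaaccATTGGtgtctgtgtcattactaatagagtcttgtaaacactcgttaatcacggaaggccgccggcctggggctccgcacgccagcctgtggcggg

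The HSP90B1 promoter held 5 CCAAT boxes and 3 GC boxes, and in 2 places the longer endoplasmic reticulum stress element, a CCAAT box followed after 9 bases by CCACG. That element was found on either strand in 27 of the 35116 promoters in the table, or 0.0769%, whereas 45.0% held a GC box and 34.6% a CCAAT box. Overlapping matches were each counted, which gave 7 GC boxes and 1 CCAAT box in HIP1, 2 GC boxes in SEMA4G, 3 in NEMP2 and 1 in KDM5A. The CDX2 promoter held 2 CCAAT boxes and no GC box. G and C made up 66.0% of the HSP90B1 promoter, 72.7% of SEMA4G, 73.0% of HIP1, 60% of KDM5A, 77.7% of NEMP2 and 50.3% of CDX2, against a median of 58.7% over the table. The genes shown at raised and at lowered anchors thus both included promoters rich in G and C, and a match of letters is a description of the window only.

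Same-anchor PETs at matched anchors numbered 245908 in SW620, 29.1% of its 844521 same-anchor PETs, and 77910 in SW480, 59.7% of its 130508. Each library was scaled to these PETs, giving PETs per 1000000 (PPM), and a ratio is SW620 over SW480 with its exact conditional 95% interval, which covers counting error only. A count of 0 allows up to 12.2 PPM in SW620 and 38.5 PPM in SW480, which is taken as 3 counts and serves as the floor for a fold. An anchor was called higher or lower where the ratio passed 2-fold and the higher library had at least 10 PETs. Of 3308 anchors with 10 PETs in either line, 558 were higher in SW620 (16.9%), 386 were lower (11.7%) and 2364 were neither. The minimum of 10 PETs stands for a higher PPM in SW480, so the larger number of higher anchors is not read as a direction. Over the 2035 anchors with 10 PETs in both lines the median ratio was 0.887, with quartiles of 0.605 and 1.25. The interval lay above 1 at 322 of the higher anchors and below 1 at 359 of the lower ones. SW480 had 3 PETs or fewer at 267 of the higher anchors, so many of those calls rest on few counts in the shallower line. Scaling to all same-anchor PETs of each library multiplies every ratio by 0.488, a shift of -1.04 on the log2 scale, and leaves 132 anchors higher and 1282 lower. Scaling to the median ratio shifts them by 0.17. Directions below hold at the scaling to matched anchors unless another is named.

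**Figure D1:**
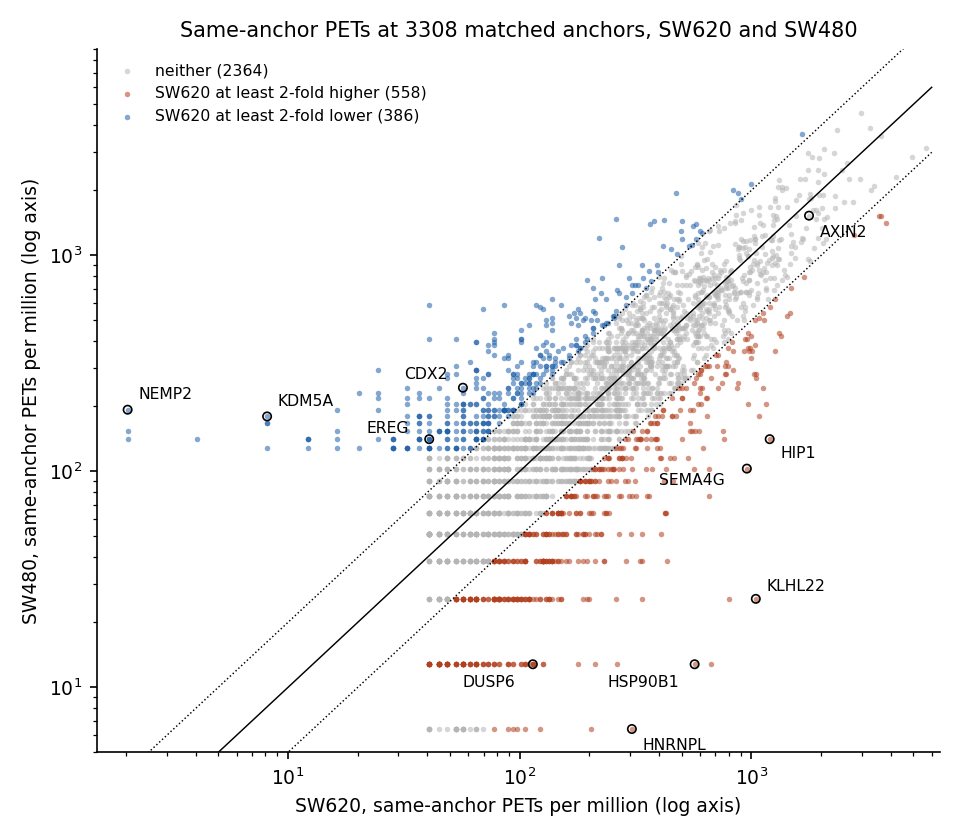
Each point is 1 of 3308 matched anchors, with same-anchor PPM in SW620 on the x axis and in SW480 on the y axis (log axes); the solid line marks equal levels, the dotted lines 2-fold, and a count of 0 is drawn at 0.5 PETs. The 558 higher anchors fan out below the lines along rows of few SW480 PETs, with HNRNPL, HSP90B1 and KLHL22 farthest out among the labelled points, and the 386 lower anchors lie above, with NEMP2 and KDM5A at the left.

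At the anchors with the firmest rise in SW620, the matched SW480 anchor mostly held hardly any PETs. Gene starts at leading anchors were added after their values were seen, so a named start at these anchors is not a result. A start was sought within the joined bounds of both lines' anchors plus 2 kb. Whether the shorter SW480 anchor itself covers the start was not checked. At KLHL22, an adaptor of a CUL3 ubiquitin ligase, the anchor (chr22:20848126-20853253 in SW620) held 257 PETs in SW620 and 2 in SW480, a ratio of 40.7 (11.2 to 338). At HSP90B1, the chaperone GRP94 of the endoplasmic reticulum (chr12:104320660-104326474), there were 140 PETs in SW620 and 1 in SW480, a ratio of 44.4 (7.83 to 1764). PPP1R3E encodes a subunit that directs protein phosphatase 1 to glycogen. Its anchor (chr14:23768616-23773322) held 164 PETs in SW620 and 1 in SW480, a ratio of 52.0 (9.2 to 2065). The anchor of NEK8, a kinase of the primary cilium, and its neighbour TLCD1 (chr17:27051097-27057529) held 197 PETs in SW620 and 2 in SW480, a ratio of 31.2 (8.53 to 259). At HNRNPL, a splicing regulator, 75 PETs in SW620 stood against 0 in SW480, at least 7.92-fold higher against the floor, with a lower interval bound of 6.28. At ZNF503, a zinc finger repressor, 50 PETs in SW620 stood against 0 in SW480, at least 5.28-fold higher against the floor, with a lower interval bound of 4.14. A fold against the floor leaves out the counting error of the other line, and the interval bound includes it. SW480 was thus at or near its floor in its matched anchor at all 6 of these places.

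Other raised anchors had a measurable level in SW480. HIP1, a clathrin-binding protein of endocytosis (chr7:75356652-75370739), had 295 PETs in SW620 (1200 PPM) and 11 in SW480 (141 PPM), a ratio of 8.5 (4.68 to 17.2). SEMA4G, a transmembrane semaphorin (chr10:102727114-102734644), had 235 PETs in SW620 and 8 in SW480, a ratio of 9.31 (4.65 to 21.8). IER5L, a relative of the immediate early gene IER5 (chr9:131933459-131941857), had 161 PETs in SW620 and 6 in SW480, a ratio of 8.5 (3.82 to 23.5). The SW620 anchor was the longer one at each of these 9 places. HIP1 spanned 14.1 kb in SW620 and 7.36 kb in SW480, and per kb of each line's anchor its ratio was 4.44. Per kb the ratio was 23.4 at KLHL22, 31.1 at PPP1R3E, 29.9 at HSP90B1 and 5.06 at SEMA4G. These 9 anchors each overlapped a lone anchor of the other line and stayed past 2-fold under every scaling tried, down to 2.58-fold. The tenth, at the phospholipase gene PLA2G4D (chr15:42374193-42399226), did not hold. It had 106 PETs in SW620 and 3 in the matched SW480 anchor, a ratio of 11.2 (3.73 to 55.1), but the SW620 anchor also covered part of a further SW480 anchor. With that one added, 106 PETs stood against 45 and the ratio was 0.746 (0.522 to 1.08). Such splits touched 44 of the 558 higher anchors on the SW480 side and 43 of the 386 lower anchors on the SW620 side. With all overlapping anchors summed, 525 of the higher and 359 of the lower anchors remained past 2-fold.

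The 10 anchors with the firmest fall in SW620 held 0 to 10 PETs in SW620 and 11 to 46 in SW480. NEMP2, an inner nuclear membrane protein (chr2:191396086-191401705), had 0 PETs in SW620 and 15 in SW480, at least 15.8-fold lower against the floor, with an upper interval bound of 0.0883 on the ratio. Within RERE, a nuclear receptor corepressor (chr1:8481553-8486306), there were 0 PETs in SW620 and 12 in SW480, at least 12.6-fold lower with an upper bound of 0.114. A place with no gene named here, chr13:49972720-49976572, had 0 PETs in SW620 and 11 in SW480, at least 11.6-fold lower with an upper bound of 0.126. SW620 was thus at its floor at all 3. KDM5A, a demethylase of lysine 4 on histone H3 (chr12:496846-500162), had 2 PETs in SW620 and 14 in SW480, a ratio of 0.0453 (0.00499 to 0.197). An anchor at the end of NR2F2, which encodes the orphan nuclear receptor COUP-TFII (chr15:96882472-96885258), had 10 PETs in SW620 and 46 in SW480, a ratio of 0.0689 (0.031 to 0.138). It was 2.79 kb long in SW620 and 5.17 kb long in SW480, so the SW480 anchor offered more sequence. Within ETV6, an ETS family repressor (chr12:11878747-11886118), there were 10 PETs in SW620 and 32 in SW480, a ratio of 0.099 (0.0434 to 0.206). Within CERS6, a ceramide synthase (chr2:169396505-169404888), there were 6 PETs in SW620 and 23 in SW480, a ratio of 0.0827 (0.0275 to 0.209). The remaining 3 named by the same rule had no gene named here, and SW620 held 1 or 2 PETs in each. They were chr17:53508737-53513190 with 1 PET in SW620 and 11 in SW480, chr2:235332195-235337874 with 2 and 13, and chr17:63466049-63469755 also with 2 and 13. The SW480 anchor was the longer one at each of the 10 except the one within RERE. Per kb of each line's anchor the ratio was 0.122 at NEMP2, 0.0751 at KDM5A, 0.128 at NR2F2, 0.198 at ETV6 and 0.0719 within RERE. All 10 remained past 2-fold lower under every scaling tried.

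The strongest anchors of each line were named by level and not by ratio. In SW620 the highest was chr17:70565098-70640132, with 1393 PETs in SW620 (5665 PPM) and 246 in SW480 (3157 PPM), a ratio of 1.79 (1.57 to 2.06). The next was chr16:50477903-50516519, between BRD7 and NKD1, with 1214 PETs in SW620 and 222 in SW480, a ratio of 1.73 (1.5 to 2.01). The anchor of DVL2, which passes on Wnt signals, with the autophagy gene GABARAP and with PHF23, had 1038 PETs in SW620 and 180 in SW480, a ratio of 1.83 (1.56 to 2.15). Only the anchor of the raft protein FLOT1 and the immediate early gene IER3 was called among these 4, with 933 PETs in SW620 and 110 in SW480, a ratio of 2.69 (2.2 to 3.3), which was 1.6 with all overlapping anchors summed. In SW480 the highest was HNRNPUL1, an RNA-binding protein, with 733 PETs in SW620 and 355 in SW480 (4557 PPM), a ratio of 0.654 (0.576 to 0.745). BCL2L1, the survival gene for BCL-XL, had 803 PETs in SW620 and 302 in SW480, a ratio of 0.842 (0.737 to 0.965). PRDM15, a zinc finger protein, had 577 PETs in SW620 and 296 in SW480, a ratio of 0.618 (0.536 to 0.713). GPRC5A, a receptor of epithelia, had 406 PETs in SW620 and 283 in SW480, a ratio of 0.455 (0.39 to 0.531), which was 0.675 with overlapping anchors summed and so no longer 2-fold.

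The bounds of an anchor moved with its ratio. Across 3308 anchors the ratio of lengths and the ratio of PETs had a Spearman rho of 0.55, a description over anchors of the same 2 libraries. Higher anchors were 8.45 kb long in SW620 and 5.83 kb in SW480 at the median, and 501 of the 558 were longer in SW620. Lower anchors were 6.44 kb long in SW620 and 7.7 kb in SW480 at the median, and 283 of the 386 were longer in SW480. Per kb of each line's own anchor, the median ratio of the higher anchors was 2.1 in place of 3.0, and that of the lower anchors 0.414 in place of 0.361. How far length alone accounts for the calls was not tested.

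**Figure D2:**
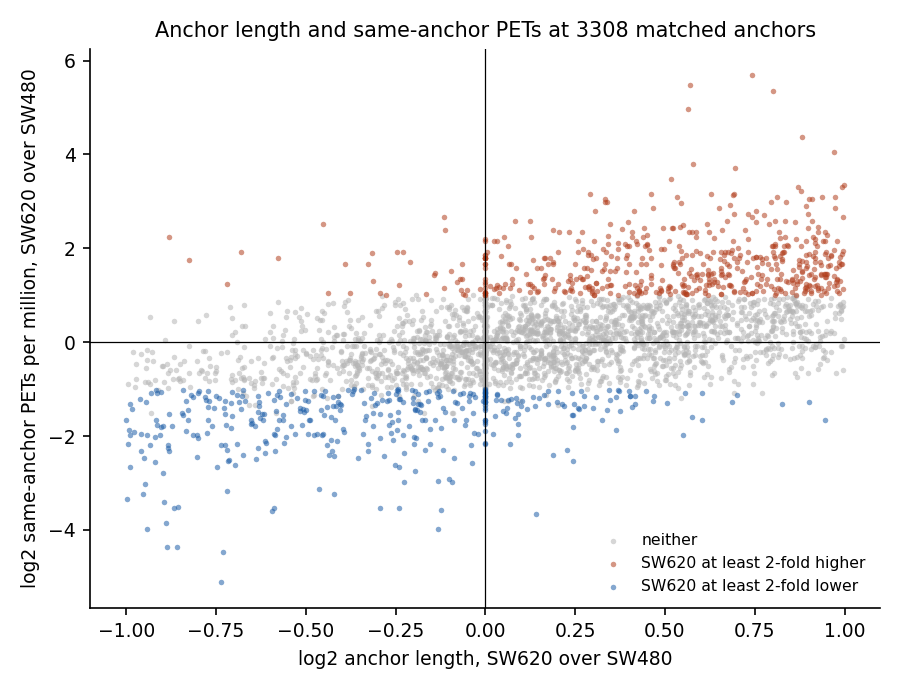
Each point is 1 of 3308 matched anchors, with the log2 ratio of anchor lengths (SW620 over SW480) on the x axis and the log2 ratio of same-anchor PPM on the y axis. Most of the 558 higher anchors lie to the right of 0, where the SW620 anchor is longer, and most of the 386 lower anchors to the left.

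Anchors with identical bounds in both lines have no such difference. There were 513, of which 328 had 10 PETs in either line. Among these 23 were higher in SW620 (7.01%) and 27 lower (8.23%), against 18% and 12% of the anchors with other bounds, and the median ratio was 0.957. Scaled to their own PETs, which multiplies these ratios by 1.13, 42 were higher and 16 lower, so the balance between the directions depends on the scaling. The firmest rise was at KCNE3, a potassium channel subunit of colon epithelium (chr11:74171854-74180553), with 159 PETs in SW620 (647 PPM) and 14 in SW480 (180 PPM), a ratio of 3.6 (2.08 to 6.73). REV3L, the catalytic subunit of DNA polymerase zeta, had 203 PETs in SW620 and 31 in SW480, a ratio of 2.07 (1.42 to 3.13). SLC6A9, a glycine transporter, had 158 PETs in SW620 and 24 in SW480, a ratio of 2.09 (1.35 to 3.35). ELOVL6, a fatty acid elongase, had 29 PETs in SW620 and 2 in SW480, a ratio of 4.59 (1.16 to 39.7). Scaled to all same-anchor PETs, KCNE3 was at 1.76 and ELOVL6 at 2.24, but REV3L and SLC6A9 were at 1.01 and 1.02. The firmest fall was at OSBPL8, a lipid transfer protein (chr12:76951663-76955820), with 22 PETs in SW620 and 26 in SW480, a ratio of 0.268 (0.145 to 0.492). NAA50, an N-terminal acetyltransferase, had 10 PETs in SW620 and 14 in SW480, a ratio of 0.226 (0.0899 to 0.548). TMEM17, a protein of the ciliary transition zone, had 15 PETs in SW620 and 16 in SW480, a ratio of 0.297 (0.137 to 0.641). An anchor with no gene named here, chr7:80781636-80793333, had 34 PETs in SW620 and 35 in SW480, a ratio of 0.308 (0.186 to 0.508).

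HCT116 and LS513 give the levels of further lines at the same anchors. At 2435 anchors matched in all 4 lines, each library was scaled to its same-anchor PETs there. Over the 335 higher anchors among them the median level was 254 PPM in SW620, 87.4 in SW480, 303 in HCT116 and 235 in LS513. SW480 was below the other 3 lines at 284 of them (84.8%), while SW620 was above the other 3 at 150 (44.8%). Over the 186 lower anchors the medians were 131 in SW620, 393 in SW480, 239 in HCT116 and 182 in LS513. SW480 was above the other 3 lines at 142 of these (76.3%), and SW620 was below the other 3 at 109 (58.6%). Over the 1914 anchors called neither the medians were 192, 197, 252 and 201 in SW620, SW480, HCT116 and LS513, with SW480 lowest at 24.8% and highest at 27.7%. SW620 was highest at 15.6% and lowest at 25.4% of these. The calls were made on SW620 and SW480, so an extreme of one of these lines is built into them, and SW480 had the fewest PETs. HCT116 and LS513 were matched to the SW620 bounds, and called anchors mostly differed in length between SW620 and SW480. How far this sets SW480 apart was not tested.

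**Figure D3:**
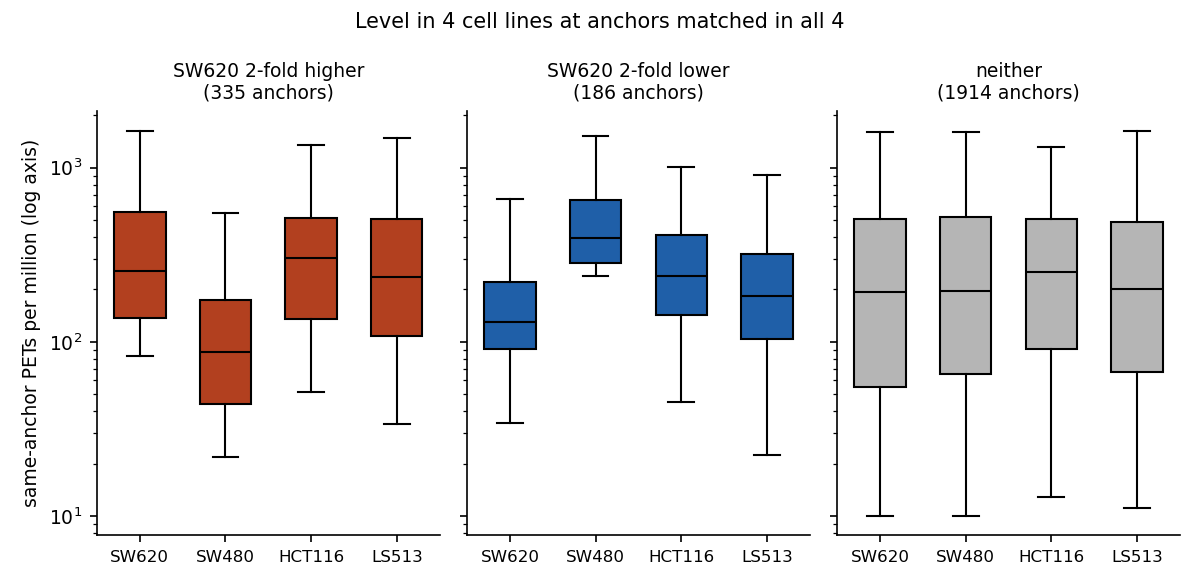
Boxes give the median and quartiles, and whiskers the 5th to 95th percentiles, of same-anchor PPM (log axis) in SW620, SW480, HCT116 and LS513 at anchors higher, lower or neither in SW620; levels under 10 are drawn at 10. SW480 is the low line at the 335 higher anchors, at a median of 87.4, and the high line at the 186 lower anchors, at a median of 393. HCT116 and LS513 anchors were matched to the SW620 bounds.

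HSP90B1 gives an example at the scale of the 4 lines, with 962 PPM in SW620, 21.8 in SW480, 974 in HCT116 and 1418 in LS513. KLHL22 was alike, with 1766 in SW620, 43.7 in SW480, 1265 in HCT116 and 1534 in LS513. At both SW480 had the lowest level, counted over a shorter anchor than in SW620. The SW480 and SW620 anchors spanned 3.92 and 5.82 kb at HSP90B1 and 2.94 and 5.13 kb at KLHL22. KDM5A had 13.7 PPM in SW620, 306 in SW480, 96.8 in HCT116 and 112 in LS513, and NEMP2 had 0 in SW620, 328 in SW480, 452 in HCT116 and 201 in LS513. At NEMP2 SW620 had the lowest level, over an anchor of 5.62 kb against 10.8 kb in SW480.

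Of 117 genes in 9 lists of colon cancer biology, 42 had their start at a matched anchor, 14 had anchors in both lines that did not match, 39 had an anchor in SW620 only, 1 in SW480 only (KRT19) and 21 in neither. SW620 was the deeper library, and an anchor called in it only is not read as a difference. Of the 42 matched anchors 39 had 10 PETs in either line. Of these, 3 were higher, 3 lower and 33 neither, beside 16.9% higher and 11.7% lower over all anchors and a median ratio of 1.04. Scaled to all same-anchor PETs, 1 of the 39 was higher (DUSP6) and 15 lower (38.5%), beside 38.8% lower over all anchors.

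Wnt feedback and target genes stayed within 2-fold. All 6 with a matched anchor were called neither, with ratios of 1.15 to 1.39 and a median of 1.18. AXIN2, a scaffold that restrains beta-catenin, had 436 PETs in SW620 (1773 PPM) and 119 in SW480 (1527 PPM), a ratio of 1.16 (0.946 to 1.43). NOTUM, a secreted inhibitor of Wnt ligands, had 505 PETs in SW620 and 115 in SW480, a ratio of 1.39 (1.13 to 1.72). NKD1, an inhibitor acting on DVL proteins, had 467 PETs in SW620 and 126 in SW480, a ratio of 1.17 (0.963 to 1.44), or 1.56 with overlapping anchors summed. The ubiquitin ligase RNF43, the Wnt-responsive factor SP5 and cyclin D1 (CCND1) had ratios of 1.15, 1.25 and 1.18. Every one of the 6 fell under 1 when scaled to all same-anchor PETs, where their median was 0.573.

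Among 14 intestinal transcription factors 3 had a matched anchor, 1 lower and 2 neither, with a median of 0.647. That median leaves out the other genes of the list. HNF4A had unmatched anchors in both lines, with 153 PETs in SW620 and 2 in SW480. An anchor in SW620 only, the deeper library, was found for 5 genes, in SW480 only for 0 and in neither for 5. CDX2, which sets intestinal identity, had 14 PETs in SW620 (56.9 PPM) and 19 in SW480 (244 PPM), a ratio of 0.233 (0.108 to 0.491), and was 0.114 when scaled to all same-anchor PETs. EHF, an ETS factor of epithelia, had 319 PETs in SW620 and 131 in SW480, a ratio of 0.772 (0.628 to 0.953). KLF5, a factor of crypt cells, had 49 PETs in SW620 and 24 in SW480, a ratio of 0.647 (0.389 to 1.1). CDX2 alone of these passed 2-fold at the scaling to matched anchors, and the ratio of KLF5 had an interval that included 1. Scaled to all same-anchor PETs, EHF at 0.376 and KLF5 at 0.316 were past 2-fold lower too.

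Of the listed epithelial junction and keratin genes, 4 had a matched anchor with 10 PETs in either line, none of them past 2-fold, with a median of 1.09. KRT8 and KRT18, the paired keratins of simple epithelium, had ratios of 1.17 (0.99 to 1.39) and 1.15 (0.851 to 1.57), from 647 and 203 PETs in SW620 against 175 and 56 in SW480. EPCAM, a surface adhesion protein of epithelia, had 13 PETs in SW620 and 4 in SW480, a ratio of 1.03 (0.318 to 4.34). ESRP1, an epithelial splicing regulator, had a ratio of 0.774. KRT23 had 6 PETs in each line, a ratio of 0.317 (0.0847 to 1.19), and missed the minimum. KRT19, a keratin of simple epithelium, had 61 PETs at an anchor of SW480 and no anchor in SW620. The other way, 6 genes of the list had an anchor in SW620 only, from 0 PETs at CLDN3 and TJP1 to 428 at CDH1 and 820 at ESRP2. SW620 is the deeper library, and these are not read as differences. Scaled to all same-anchor PETs, ESRP1 passed 2-fold lower. KRT83 and KRT86, hair-type keratins not in the list, had a higher anchor, described with the loops. Of the mesenchymal genes AXL, a receptor tyrosine kinase, was the only one with a matched anchor, and it had 323 PETs in SW620 and 75 in SW480, a ratio of 1.36 (1.06 to 1.78).

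The list of ERBB, MET and ERK feedback genes held both higher and lower anchors. EREG, the ERBB ligand epiregulin, had 10 PETs in SW620 (40.7 PPM) and 11 in SW480 (141 PPM), a ratio of 0.288 (0.11 to 0.747). Its SW480 anchor was longer, 13.6 kb against 7.43 kb in SW620, and with overlapping anchors summed the ratio was 0.547, which ends the call. DUSP4 and DUSP6 are phosphatases that switch ERK signalling off. DUSP6 had 28 PETs in SW620 and 1 in SW480, a ratio of 8.87 (1.47 to 363). DUSP4 had 137 PETs in SW620 and 15 in SW480, a ratio of 2.89 (1.69 to 5.31), and 1.41 when scaled to all same-anchor PETs. The receptor ERBB2 had a ratio of 1.37 (0.654 to 3.22), and the feedback inhibitors SPRY2 and SPRY4 had ratios of 1.16 and 1.32. The ETS factor ETV4 was at 0.856, and PHLDA1 at 0.59 (0.471 to 0.741), just short of 2-fold. The median over these 8 was 1.24. EREG, ETV4 and PHLDA1 passed 2-fold lower when scaled to all same-anchor PETs.

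No TGF-beta or BMP gene passed 2-fold among 5 with a matched anchor, and the median was 0.833. Scaled to all same-anchor PETs, BMP7, SMAD3 and TGIF1 passed 2-fold lower. BMP7, a secreted ligand, had the lowest ratio, 0.561 (0.41 to 0.772), from 115 PETs in SW620 and 65 in SW480. The signal transducer SMAD3 was at 0.825, BMP4 at 1.05 and the corepressor TGIF1 at 0.833. SKIL, a SMAD corepressor, had 13 PETs in SW620 and 0 in SW480, which allows no call at this depth. AP-1 factors were at 1.31 (FOSL1), 0.901 (JUNB) and 0.809 (JUND), and JUN missed the minimum, with a median of 0.901 over the 3, of which JUNB and JUND passed 2-fold lower when scaled to all same-anchor PETs. In the laminin, integrin and adhesion list ITGB4, which anchors cells to laminin, had 28 PETs in SW620 and 4 in SW480, a ratio of 2.22 (0.776 to 8.7) that is called by size but has an interval including 1. LAMB3 was at 0.648 (0.479 to 0.884), ITGB1 at 1.58 and L1CAM at 1.3, ITGA2 missed the minimum, and the median of 4 was 1.44. When scaled to all same-anchor PETs, LAMB3 passed 2-fold lower and ITGB4 was no longer higher. Among genes studied in metastasis PLAUR, the urokinase receptor, was lower, with 24 PETs in SW620 and 18 in SW480, a ratio of 0.422 (0.22 to 0.826), while MACC1, NME1, CD82 and MMP14 lay between 0.882 and 1.43 and the median of 5 was 1.16. MMP14 joined PLAUR past 2-fold lower when scaled to all same-anchor PETs.

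**Figure D4:**
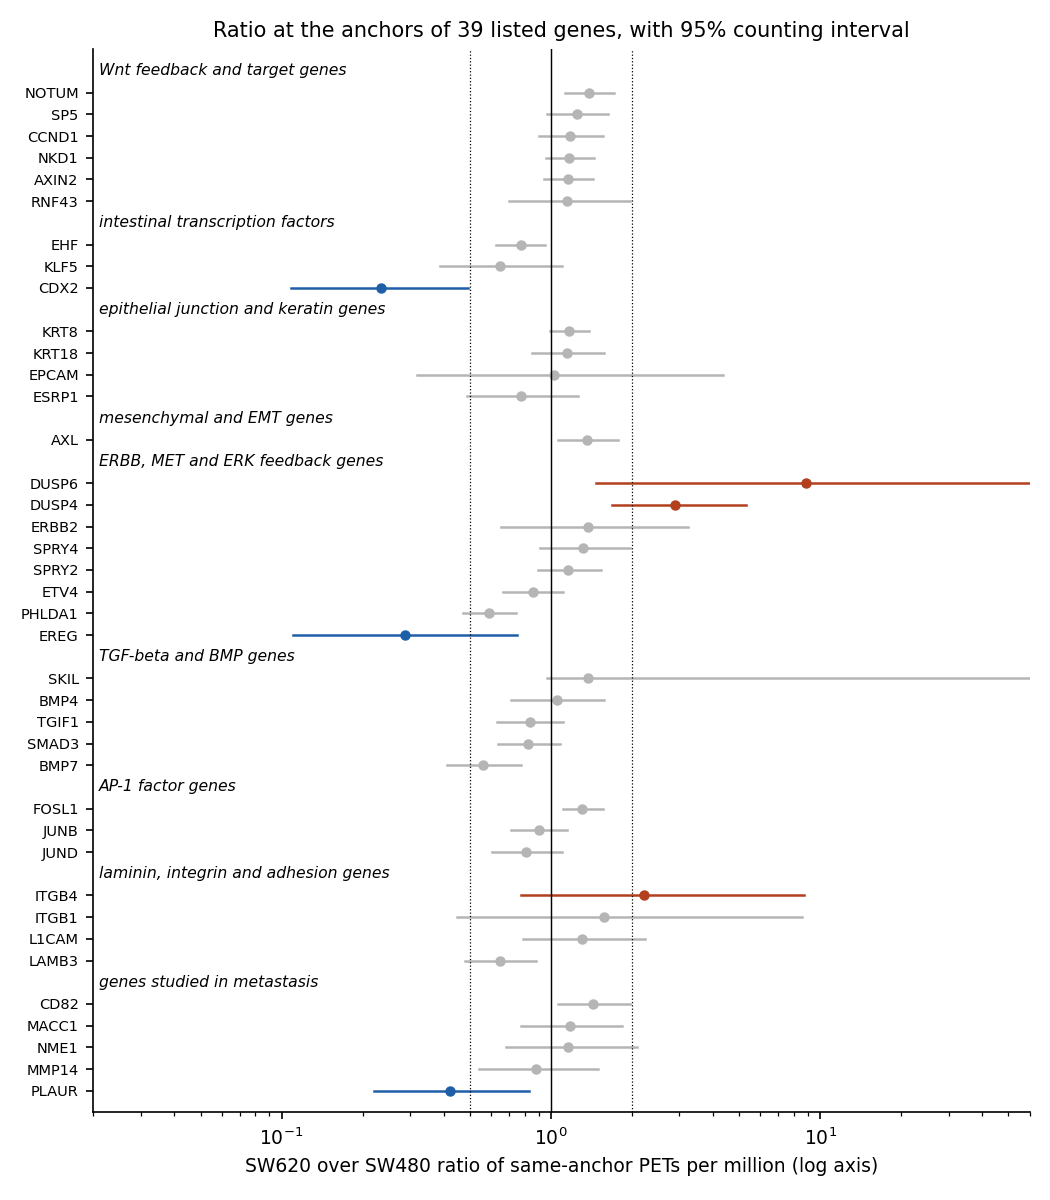
Points give the SW620 over SW480 ratio of same-anchor PPM (log axis) at the anchors of 39 listed genes, grouped by list, and lines the 95% counting interval, cut at 60; the solid line marks 1 and dotted lines 2-fold each way. Most points sit between the dotted lines, with DUSP6, DUSP4 and ITGB4 to the right and CDX2, EREG and PLAUR to the left.

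The labelled cell type was checked against 12 markers of colon epithelium. KRT8, KRT18, EPCAM and CDX2 had matched anchors, HNF4A had unmatched anchors in both lines, CDX1, VIL1, CDH1 and ELF3 had one in SW620 only and KRT19 in SW480 only, and KRT20 and CEACAM5 in neither. No marker of blood, endothelium, fibroblasts or neural cells with a known start had a matched anchor. Unmatched SW620 anchors covered SPI1, CDH5, PDGFRB, SOX10 and GFAP with 1 to 50 PETs, and COL1A1 had 105 PETs in SW620 and 0 in SW480.

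Loops between matched anchors were thinner. SW620 had 4140 such loops with 15394 PETs, 10.1% of its filtered PETs, and SW480 had 2122 loops with 4717 PETs, 34.0% of its filtered PETs. The 1474 loops seen in both were 35.6% of those of SW620 and 69.5% of those of SW480. A count of 0 allows up to 195 PPM of loop PETs in SW620 and 636 in SW480. Of 306 loops with 10 PETs in either line, 76 were higher in SW620 (24.8%), 24 of them with an interval above 1, and 17 were lower (5.56%), 12 with an interval below 1. The minimum of 10 PETs is harder to reach in SW480, so the larger number of higher loops is not read as a direction, and over the 45 loops with 10 PETs in both lines the median ratio was 0.751. Scaling to all filtered PETs multiplies loop ratios by 0.297, a log2 shift of -1.75, and leaves 3 loops higher and 45 lower. Scaling to the median loop ratio shifts them by 0.41. Loops spanning 300 kb or more held 12.4% of the PETs in SW620 (11.9 to 12.9) and 9.67% in SW480 (8.84 to 10.5), and loops under 20 kb held 15.7% in SW620 and 16.8% in SW480.

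The firmest rise was on chromosome 16, between BRD7, a bromodomain subunit of the PBAF remodelling complex, and the strong anchor lying toward NKD1. The loop from BRD7 to that anchor (chr16:50400413-50438124 to chr16:50477903-50516519, 77.9 kb) had 150 PETs in SW620 and 10 in SW480, a ratio of 4.6 (2.43 to 9.78). From BRD7 to the next anchor at chr16:50528130-50545357 there were 42 PETs in SW620 and 1 in SW480, a ratio of 12.9 (2.19 to 520). From BRD7 to NKD1 there were 57 PETs in SW620 and 6 in SW480, a ratio of 2.91 (1.26 to 8.26), which turned to 0.865 when scaled to all filtered PETs. BRD7's own anchor had 310 PETs in SW620 and 28 in SW480, a ratio of 3.51, or 2.46 with overlapping anchors summed. It spanned 37.7 kb in SW620, and the matched SW480 anchor spanned 22.2 kb. Loop PETs were not summed in this way, so the BRD7 loop ratios leave out loops of any further overlapping SW480 anchor. The loop from the strong anchor to NKD1, the deepest in SW620, was called neither, with 210 PETs in SW620 and 41 in SW480, a ratio of 1.57 (1.12 to 2.25). Of the loops named here between BRD7 and NKD1, those past 2-fold ended at BRD7. Scaled to all filtered PETs, only 2 of the 6 loops with the firmest rise stayed past 2-fold, the second BRD7 loop at 3.83 and the FOXQ1 loop below at 3.73, and each rests on 1 PET in SW480. The first BRD7 loop was then at 1.37.

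The other loops named for a firm rise joined keratin, S100 and forkhead genes. From KRT81 to KRT83 and KRT86, hair-type keratins, there were 89 PETs in SW620 and 5 in SW480, a ratio of 5.45 (2.25 to 17.2). The end at KRT83 and KRT86 had 283 same-anchor PETs in SW620 and 16 in SW480, a ratio of 5.6, and the KRT81 end was at 1.37. Scaled to all filtered PETs, the loop was at 1.62. From FOXQ1, a forkhead factor, to chr6:1320693-1329820 there were 41 PETs in SW620 and 1 in SW480, a ratio of 12.6 (2.13 to 508). The FOXQ1 end was at 1.27 in same-anchor PETs and the far end at 4.88, from 185 PETs in SW620 and 12 in SW480. From S100A14 and S100A16 to S100A1 and S100A13, genes for calcium-binding proteins, there were 56 PETs in SW620 and 3 in SW480, a ratio of 5.72 (1.86 to 28.6), with ends at 1.31 and 2.3, and 1.7 when scaled to all filtered PETs. In each of these 3 loops 1 end rose past 2-fold and the other did not. A loop within PCCA, a subunit of propionyl-CoA carboxylase (chr13:101079876-101100100 to chr13:101102249-101121241) had 26 PETs in SW620 and 0 in SW480, at least 2.66-fold higher against the floor, with a lower interval bound of 2.01, though 0.79 when scaled to all filtered PETs.

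Of 32 loops with an end at a listed gene and 10 PETs in either line, 6 were higher, 3 of them with an interval above 1, 1 was lower and 25 were neither, so that 18.8% were higher and 3.12% lower, beside 24.8% and 5.56% over all loops with the minimum. The KRT8 to KRT18 loop had 75 PETs in SW620 and 10 in SW480, a ratio of 2.3 (1.18 to 4.99), with neither end called, and 0.683 when scaled to all filtered PETs. The AXIN2 loop spanning 21.4 kb had 137 PETs in SW620 and 42 in SW480, a ratio of 1.0 (0.703 to 1.45). Longer AXIN2 loops were called both ways, with intervals that included 1. The loop over 137 kb was lower, with 13 PETs in SW620 and 10 in SW480, a ratio of 0.398 (0.161 to 1.01). Over 183 kb it was higher, with 20 and 3 PETs, a ratio of 2.04 (0.606 to 10.7), and over 103 kb neither, at 1.84. The EHF loop spanning 30.8 kb had 54 PETs in SW620 and 24 in SW480, a ratio of 0.689 (0.419 to 1.17). The loop from TSPOAP1 to RNF43 had 23 PETs in SW620 and 0 in SW480, at least 2.35-fold higher against the floor, with a lower interval bound of 1.76, so that 2-fold lies within its counting error, and 0.698 when scaled to all filtered PETs.

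The 6 loops with the firmest fall in SW620 rested on 10 to 22 PETs in SW480. The first joined chr9:140339012-140345398 to NSMF, a synaptic and nuclear signalling protein, with 4 PETs in SW620 and 22 in SW480, a ratio of 0.0557 (0.014 to 0.164). The NSMF end was at 0.874 in same-anchor PETs and the other end at 0.263, from 93 PETs in SW620 and 112 in SW480. Within CEP112, a centrosomal protein gene beside AXIN2, the loop from chr17:63685426-63712516 to chr17:63737193-63751510 had 7 PETs in SW620 and 21 in SW480, a ratio of 0.102 (0.0367 to 0.249), with ends at 0.243 and 0.381. Both of its ends were lower, as they were at the loop from chr3:31249943-31257610 to chr3:31323262-31339187, with 9 PETs in SW620 and 11 in SW480, a ratio of 0.251 (0.0918 to 0.665) and ends at 0.22 and 0.255. At MATR3, a nuclear matrix protein, and SNHG4 the loop had 4 PETs in SW620 and 10 in SW480, a ratio of 0.123 (0.0281 to 0.425), with ends near 1, at 0.811 and 1.04. The loop from chr1:25405915-25422186 to chr1:25504081-25530171 had 7 PETs in SW620 and 16 in SW480, a ratio of 0.134 (0.0466 to 0.344). The sixth, spanning 244 kb from chr12:76092435-76123045 to chr12:76321053-76381892, had 12 PETs in SW620 and 14 in SW480, a ratio of 0.263 (0.111 to 0.612). All 6 remained past 2-fold lower under every scaling tried.

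Loop and anchor ratios moved together in part. Over 277 loops with PETs in both lines and 10 in either, the log2 loop ratio and the mean log2 ratio of its ends had a Pearson r of 0.59 and a Spearman rho of 0.59, a description over loops that share the 2 libraries and often an end. Of the 76 higher loops, 42 had an end that was itself higher, 4 had an end that was lower and 31 had neither end called. Of the 17 lower loops, 11 had an end that was lower, 0 had an end that was higher and 6 had neither end called. The share of all 306 loops with a called end was not worked out. Each loop has 2 ends, and 16.9% of all anchors were higher and 11.7% lower, so these counts are given without a reading.

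**Figure D5:**
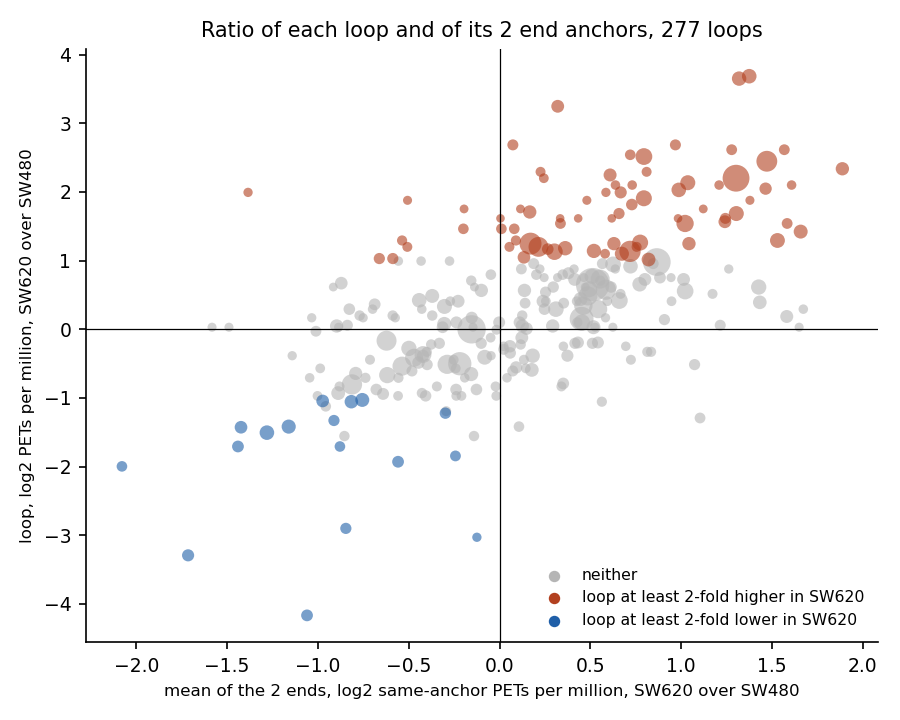
Each point is 1 of 277 loops, with the mean log2 SW620 over SW480 ratio of same-anchor PETs at its 2 ends on the x axis and the log2 ratio of its loop PPM on the y axis; area grows with the PETs of the loop. Higher loops lie mostly at the upper right and the 17 lower loops at the lower left, with a Spearman rho of 0.59.

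Chromosomes carried unequal shares. Chromosome 16 held 3.71% of the same-anchor PETs at matched anchors in SW620 (3.64 to 3.79, exact binomial 95% interval) and 2.61% in SW480 (2.5 to 2.72), a ratio of 1.42, with 36 of its 99 anchors higher and 6 lower. Its loop PETs had a ratio of 2.0, the highest of any chromosome, and 10 loops from BRD7 to NKD1 held 694 of its 886 loop PETs in SW620 and 97 of 136 in SW480. Its other loops had a ratio of 1.51 (1.06 to 2.19). Chromosomes 22 and 11 followed, at 1.26 and 1.25, with 24 of 78 and 50 of 203 anchors higher and 2 and 9 lower. Chromosome 18 was lowest, with 0.865% of the PETs in SW620 and 1.31% in SW480, a ratio of 0.661, and 5 of its 44 anchors were higher and 11 lower. Chromosome 2 was at 0.842, with 29 of 316 anchors higher and 62 lower, and chromosome 13, which holds CDX2 and KLF5, was at 0.816. Scaled within each chromosome, 529 anchors were higher and 358 lower, and CDX2 was at 0.286, KCNE3 at 2.87 and the first BRD7 loop at 2.3. More copies of a chromosome and more signal per copy cannot be told apart here.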

How the data were processed

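H3K27ac HiChIP libraries of SW620 and SW480, 1 each, were compared, with HCT116 and LS513 as backdrop. The submitters' processing notes name HiC-Pro and hg19 (GRCh37). No version, loop caller or anchor source is stated in them or in the labels. The deposited tables hold whole-number counts of PETs per anchor pair, per the values, and a column of the authors' that ranges from 0 to 1 and is read here as an FDR-adjusted p-value. That p-value served only in 1 alternative, keeping loops under 0.01. Same-anchor PETs came from the unfiltered intrachromosomal tables and loop PETs from the filtered ones, whose missing loops were counted 0.

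An anchor of each line was paired where both overlapped by at least 50%, and no anchor had a further such partner. Among matched pairs the smaller overlap started at 50.01% and had a median of 77.5%, and among pairs left out it ended at 50.0%. Ratios have exact conditional (Clopper-Pearson) 95% intervals, which treat PETs as independent although they carry no molecular identifiers. The matching and the calls were tested on simulated data.

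No hg19 annotation was used. Genes were placed by 207 starts of 202 genes written by hand from general knowledge. At a matched anchor the start had to lie within 2 kb of the joined bounds of both lines' anchors, so it may lie outside either one. By symbol, all 202 lay on the same chromosome in the GRCh38.p14 gene table, and 178 of 179 neighbouring pairs stood in the same order. Its coordinates were not converted, and levels by chromosome arm were not made. Starts at leading anchors were added after their values were seen, so that an anchor with no gene named may hold one. Named are the 10 anchors and 6 loops each way with the firmest interval, the 4 strongest anchors per line, listed genes at matched anchors, and, chosen after their values were seen, 4 anchors each way with identical bounds and some further loops. Members and lists were chosen with earlier results of these data known, and a few listed genes are not reported here. Of 106 genes at matched anchors 83 had a promoter in the RefSeq table. Scripts ran in Python 3.11.15 with scipy 1.17.1 for intervals, numpy 2.4.6 and pandas 2.3.3 for tables, and figures were drawn in matplotlib 3.10.9.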

Additional observations from a re-analysis of the deposited data

How the results depend on the processing

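With 1 library per line nothing here has a replicate check, intervals cover counting error only, and SW480 had fewer PETs in every class. No paired analysis was possible because each line had 1 library. The count of higher anchors, 558, was 172 with 80% overlap, 42 with identical anchors, 960 with 1 bp and a lone partner, 132 scaled to all same-anchor PETs, 931 and 133 at 1.5-fold and 4-fold, and 322 with the interval above 1. The count of lower anchors, 386, was 111, 16, 683, 1282, 675 and 87 in the same order, and 184 and 612 with minimums of 20 and 5 PETs and 246 per kb of anchor. The identical and 80% sets are smaller by construction, with 328 and 1454 anchors that reached the minimum. Each of the 3 other sets of anchors was scaled to its own PETs, which multiplies ratios by 1.11 (80%), 1.13 (identical) and 0.825 (1 bp); at the scaling of all matched anchors the identical ones gave 23 higher and 27 lower. Thinning SW620 to the PETs of SW480 gave 388 higher and 436 lower. Higher loops, 76, were 16 with 80% overlap, 0 with identical anchors, 130 with 1 bp, 3 scaled to all filtered PETs, 122 scaled to the median ratio, 44 and 121 with minimums of 20 and 5, 122 and 23 at 1.5-fold and 4-fold, 30 after thinning and 24 by interval. Lower loops, 17, were 4, 0, 45, 3, 89 and 4 with 80% overlap, identical anchors, all filtered PETs, minimums of 20 and 5, and 4-fold. Only 55 loops joined identical anchors. Scaling by chromosome, and a minimum of 2 PETs or an FDR under 0.01 per loop, kept the counts within 1.5 times.

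Scaled to all same-anchor PETs, the list medians were 0.573 (Wnt), 0.316 (intestinal factors), 0.531 (epithelial), 0.666 (mesenchymal), 0.606 (ERBB, MET and ERK), 0.406 (TGF-beta and BMP), 0.439 (AP-1), 0.703 (laminin and integrin) and 0.567 (metastasis), all under 1 because that scaling multiplies every ratio by 0.488. Scaled by chromosome the TGF-beta and BMP median was 1.19. Summing overlapping anchors, an alternative chosen after seeing the data like the comparison within identical bounds and the median scaling of single values, turned PLA2G4D to 0.746. Only 77 loops were followed singly under other scalings, those named and those with an end at a placed gene and 10 PETs in either line. Among these, scaling to all filtered PETs turned 13 higher loops: PCBP1 0.706, chr6:30645926 to TUBB 0.651, FLOT1 0.653, chr11:68021833 to LRP5 0.911, chr12:12936671 to GPRC5A 0.668, KRT8 to KRT18 0.683, KLF5 0.82, BRD7 to NKD1 0.865, NEK8 to TRAF4 0.607, TSPOAP1 to RNF43 0.698, AXIN2 over 183 kb 0.607, HNRNPUL1 0.683 and PCCA 0.79. The same factor of 0.297 applies to all 76 higher loops, and how many of the rest turned was not counted.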

Other observations

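Among the matched anchors with 10 PETs, 34.4% of the higher ones had a higher anchor as the nearest one on either side, beside 29.9% of all anchors, and 36.8% of the lower ones had a lower neighbour, beside 21% of all. These shares were worked out after seeing the data and without a test. Runs are picked by their calls, so their PETs are a description. Of the runs of neighbouring higher anchors, 366 held 1 anchor, 59 held 2 and 22 held 3 or more. Of the runs of lower anchors, 244 held 1, 43 held 2 and 16 held 3 or more. The longest run of lower anchors, 6 in 3.22 Mb of chr7:80781636-83996673, held 149 PETs in SW620 and 164 in SW480. Reaching CDX2, 3 lower anchors in chr13:28022445-28544028 held 70 PETs in SW620 and 63 in SW480. Among higher runs, 3 anchors in 74.7 kb of chrX:39963127-40037812 held 610 PETs in SW620 and 70 in SW480, and 5 in chr19:1589743-4068470, with LSM7 and SPPL2B, held 606 PETs in SW620 and 58 in SW480.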
